A study of Mus musculus with 24 samples.

Results

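At the 2 higher doses of quercetin, mouse livers numbered 4 to 6 differed from those numbered 1 to 3 most in Mt1 and Mt2. These metallothionein genes, the receptor gene Tnfrsf12a and the lipid enzyme gene Lpin1 were many times brighter in replicates 4 to 6 at both doses. Among the genes counted below, Tnfrsf12a differed more than Lpin1, by 4.48 against 2.84 (log2). Of 32 glucocorticoid-responsive genes, a list that holds Mt2 and Lpin1, 26 were higher in replicates 4 to 6, against 43.5% of all genes. So were 18 of 24 inflammatory, 23 of 27 immediate early, 20 of 24 heat shock and 23 of 28 acute phase genes. Without 4 livers described below as standing apart, these counts were 25, 14, 17, 10 and 11, against 8729 of 18193 genes. All these counts pool the 2 doses, at which the lists differed. Immediate early genes higher without overlap of the sets numbered 1 of 27 at 1.0% and 9 at 0.5%. For heat shock genes the numbers were 11 of 24 and 0, beside 7.1% and 5.6% of all genes. The comparison covers 12 of the 24 arrays of the study: 6 arrays of replicates 4 to 6 (3 at 0.5% and 3 at 1.0%) and 6 arrays of replicates 1 to 3 (3 at 0.5% and 3 at 1.0%). The replicate number was read from the sample titles, and the dose entered as a covariate. This split was chosen because Mt1 at 0.5% and Lpin1 at both doses had already been seen to divide along it in these same arrays. Differences between the sets at the higher doses are therefore given as a description, with standard errors (SE) and no test. The same split in the 12 arrays of the other diets, the comparison of the split between the doses and the comparison of the doses themselves were tested.

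All mice were male BALB/c, bought at 6 weeks of age and given a standard nonpurified diet for a week first. The 4 groups of 6 then ate AIN93G, a purified rodent diet, for 14 days: with 1.0% quercetin, with 0.5% quercetin, with 0.1% quercetin, or with none as control. Quercetin is a flavonol of many plant foods. The mice were housed 3 to a cage with the dark period set in the daytime, had free access to water, and were killed under pentobarbital, after which the liver was collected at once. The labels give neither the cage, the hour of killing nor the last meal of any mouse, so cage, handling order and replicate number cannot be told apart. RNA of each mouse went to its own Affymetrix array, and every value below is the quantile-normalized log2(intensity + 1) of 1 probe set per gene, over 18193 genes, unless another scale is named. In bulk liver, fewer cells of a type and less RNA per cell cannot be told apart.

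Metallothioneins are small cysteine-rich proteins that bind zinc and copper. Their genes are switched on through metal response elements by the zinc-sensing factor MTF1, and also by glucocorticoids and by interleukin-6, so that liver Mt1 and Mt2 are classic markers of acute stress, fasting and inflammation. Glucocorticoids act through a receptor that binds its own short response element. In a fasted liver, glucagon and glucocorticoids raise genes of glucose release, while low insulin lowers genes of fat and cholesterol synthesis. Lpin1 encodes lipin 1, a phosphatidate phosphatase and transcriptional coregulator that fasting and glucocorticoids raise in liver.

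Promoter sequences are shown for the metallothionein pair, whose difference was the largest, and for Fam107a and Sgk1, counted below as higher, which share with Mt1 a match to the glucocorticoid element. Each is the 250 bases before a transcription start in RefSeq (GRCm38.p6), read 5′ to 3′ on the strand of the gene. Mt2 and Mt1 lie on the same strand of chromosome 8 with 6471 bases between their starts. The windows are chr8:94178839-94179088 (plus strand) for Mt1, chr8:94172368-94172617 (plus strand) for Mt2, chr14:8309780-8310029 (minus strand) for Fam107a and chr10:21993640-21993889 (plus strand) for Sgk1. Capitals mark matches, on either strand, to the metal response element core (TGCACNC or TGCGCNC) or to the glucocorticoid element (GNACANNNTGTNC).
Mt1: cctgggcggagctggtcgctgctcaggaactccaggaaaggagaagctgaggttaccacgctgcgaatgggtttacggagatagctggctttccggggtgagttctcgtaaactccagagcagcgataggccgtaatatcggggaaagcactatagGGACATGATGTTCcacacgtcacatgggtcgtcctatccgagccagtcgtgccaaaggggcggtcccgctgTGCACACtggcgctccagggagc
Mt2: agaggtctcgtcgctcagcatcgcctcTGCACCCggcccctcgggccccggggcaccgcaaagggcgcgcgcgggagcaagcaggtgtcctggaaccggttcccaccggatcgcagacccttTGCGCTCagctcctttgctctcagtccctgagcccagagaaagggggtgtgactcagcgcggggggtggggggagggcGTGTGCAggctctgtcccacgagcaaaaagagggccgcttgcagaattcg
Fam107a: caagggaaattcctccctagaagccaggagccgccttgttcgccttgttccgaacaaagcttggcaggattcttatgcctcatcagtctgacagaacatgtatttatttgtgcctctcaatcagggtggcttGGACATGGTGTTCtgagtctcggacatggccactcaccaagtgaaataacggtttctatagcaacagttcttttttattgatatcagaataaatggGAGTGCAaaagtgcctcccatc
Sgk1: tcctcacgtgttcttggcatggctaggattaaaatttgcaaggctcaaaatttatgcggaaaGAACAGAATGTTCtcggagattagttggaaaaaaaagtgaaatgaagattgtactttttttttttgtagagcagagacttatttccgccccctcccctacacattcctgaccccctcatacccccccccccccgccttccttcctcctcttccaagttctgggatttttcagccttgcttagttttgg
In Mt1 the capitals nearest the start are a metal element core and the others, 94 to 82 bases before the start, are the glucocorticoid element. Mt2 held 3 metal element cores and no glucocorticoid element in this window. Fam107a held both motifs, and Sgk1, which has 6 start windows in the table, held the glucocorticoid element in the window shown. Of all 32851 promoter windows of this length, 21.4% held a metal element core and 0.387% held the glucocorticoid element. Among the genes measured that had a window, the glucocorticoid element was found in 3 of 49 genes counted below as higher (6.12%), in 1 of 25 counted as lower (4%, Lca5l) and in 51 of 14452 genes in all (0.353%). The metal element core was found in 17 of 49 higher genes (34.7%) and 9 of 25 lower ones (36%), against 30.6% of all genes. The cyclic AMP element TGACGTCA was found in 0 of 49 and 0 of 25, against 2.5% of all genes. These matches are letters in a window and were not tested. Sequence outside the windows, such as that after the start, was not searched, so the number of elements of each gene is that of its window only.

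Median signal and the actin measure of RNA quality overlapped between the sets. Median raw intensity ran from 5.70 to 6.99 in replicates 4 to 6 and from 5.53 to 7.23 in replicates 1 to 3, against 4.78 to 7.58 in the lower diets. The 3′ to 5′ ratio of the actin control probe sets, a measure of RNA integrity, ran from 0.90 to 1.18 (log2) in replicates 4 to 6 and from 0.99 to 1.33 in replicates 1 to 3, against 0.83 to 1.05 in the lower diets. The same ratio for Gapdh did not overlap at 1.0%, with -0.36, -0.41 and -0.35 in replicates 4, 5 and 6 against -0.34, -0.29 and -0.24 in replicates 1, 2 and 3, and it overlapped at 0.5%. On the first principal component (9.15% of the variance) 4 arrays of replicates 4 to 6 stood apart with scores of 45.4 to 64.2, namely replicates 4 and 5 at 1.0% and replicates 4 and 6 at 0.5%. The other 20 arrays scored 5.99 or less, and these included replicate 6 at 1.0% (5.99) and replicate 5 at 0.5% (-0.37). On the second component (5.91%) replicate 2 at 1.0% stood apart at -87.7, against -15.9 to 15.8 in the other 23 arrays. Control probe sets for 18S ribosomal RNA were bright in replicate 6 at 1.0% (9.81) and in replicate 1 at 0.5% (10.7), against at most 8.43 in the other 22 arrays. Their part in the results was not tested, and values without these arrays are given with the counts. The 12 hepatocyte markers measured averaged 11.5 to 11.7 in replicates 4 to 6 and 11.4 to 11.6 in replicates 1 to 3, and so were bright in both sets.

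The metallothioneins differed most. At 1.0%, Mt1 lay at 12.46, 12.62 and 10.59 in replicates 4, 5 and 6, against 9.45, 7.51 and 7.47 in replicates 1, 2 and 3. At 0.5% the values were 12.60, 8.99 and 12.56, against 5.91, 5.53 and 5.07. The sets did not overlap at either dose, and the lowest liver of replicates 4 to 6 at each dose was one of the 2 livers outside the group of 4 on the principal component. Mt2 followed the same pattern, with 11.88, 12.11 and 9.77 at 1.0% against 8.38, 6.10 and 6.25, and 12.01, 8.36 and 12.02 at 0.5% against 4.69, 4.03 and 3.82. The mean difference was 5.48 (SE 0.78) for Mt2, a ratio of 44.6, and 4.81 (SE 0.73) for Mt1, a ratio of 28.1. In the 12 livers of the lower diets Mt1 ran from 4.67 to 6.30 and Mt2 from 3.33 to 4.99. Replicates 1 to 3 at 0.5% lay within those ranges, whereas all 3 replicates 1 to 3 at 1.0% lay above them for both genes. The probe set for Mt1 carries a suffix for sequence shared within a gene family, so Mt1 and Mt2 signals may not be fully separate. A second Mt1 probe set, with a mean over all arrays of 2.45, differed by 2.26.

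Other genes of zinc handling differed less. Slc39a14, a zinc importer of hepatocytes that inflammation raises, had 8.34, 9.13 and 7.95 at 1.0% against 7.67, 7.65 and 7.70, and 8.55, 7.93 and 8.90 at 0.5% against 7.88, 7.29 and 7.48. Its sets did not overlap at either dose, but the difference of 0.85 (SE 0.22) was under the 2-fold rule used below, and all 6 livers of replicates 4 to 6 exceeded the lower-diet range of 7.11 to 7.47, as did 5 of the 6 livers of replicates 1 to 3. The importer gene Slc39a10 differed by 0.93 (SE 0.43), with overlap at 0.5%. Of the 9 zinc genes measured, 5 were higher in replicates 4 to 6 and the median difference was 0.32.

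Lpin1 had 8.37, 9.26 and 7.11 in replicates 4, 5 and 6 at 1.0%, against 6.14, 4.88 and 6.07 in replicates 1, 2 and 3. At 0.5% it had 9.68, 6.76 and 9.87, against 5.72, 5.67 and 5.57. No array of replicates 4 to 6 fell among those of replicates 1 to 3, and all 6 exceeded the lower diets (3.76 to 5.54). So did 5 of the 6 livers of replicates 1 to 3, by less. The difference was 2.84 (SE 0.55), a ratio of 7.14, and the second Lpin1 probe set differed by 3.02.

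**Figure D1:**
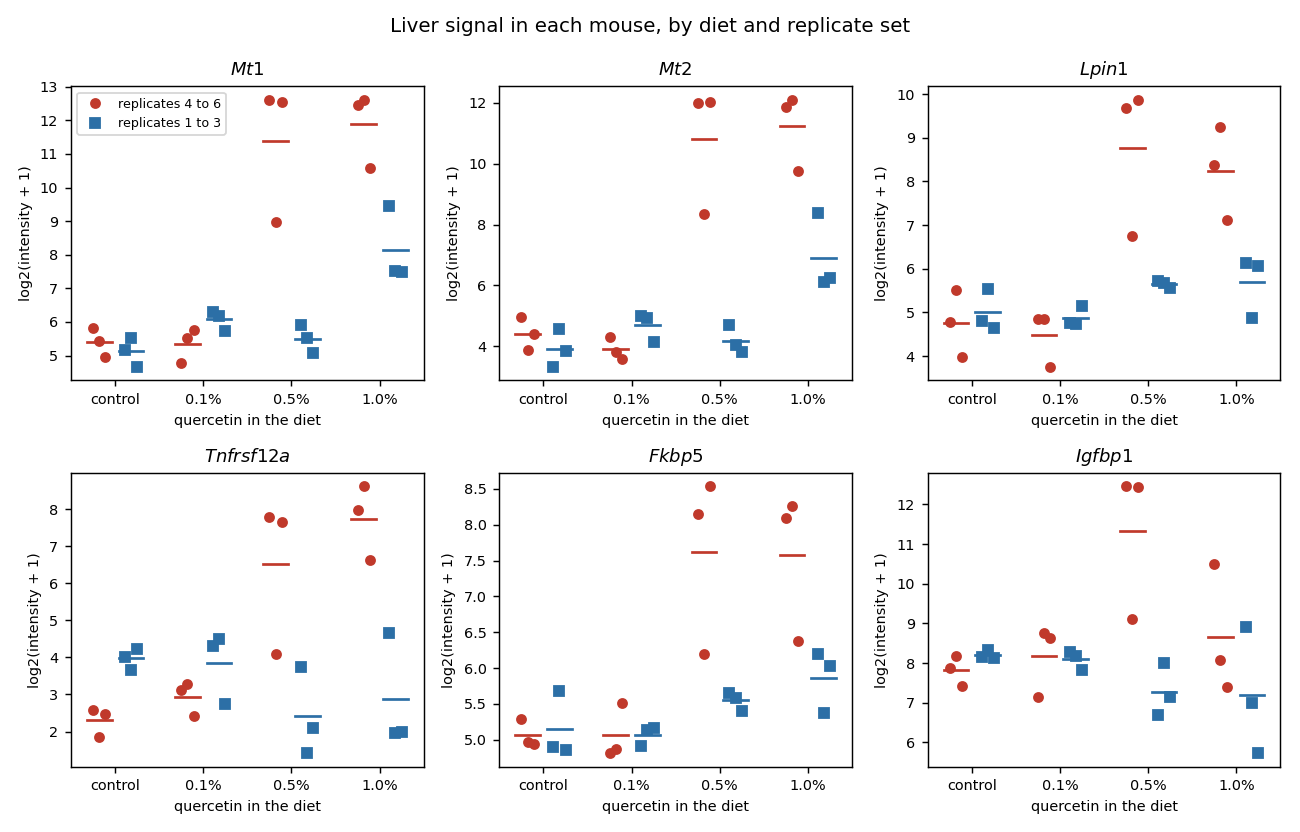
Quantile-normalized log2(intensity + 1) of 6 genes in each of the 24 livers, by quercetin in the diet. Circles are replicates 4 to 6, squares are replicates 1 to 3 and short lines are their means (3 livers each). Mt1, Mt2, Lpin1, Tnfrsf12a and Fkbp5 separate the sets at 0.5% and at 1.0%, Igfbp1 only at 0.5%. For Mt1, Mt2 and Lpin1 the circles and squares overlap at 0.1% and in control. Their differences over these 2 diets together are -0.22, -0.14 and -0.32. In control alone the mean of the circles lies above that of the squares for Mt1 and Mt2.

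To describe the split over all genes, a gene was counted when the sets differed by at least 2-fold and did not overlap at either dose. By this rule 56 genes (0.308% of 18193) were counted as higher in replicates 4 to 6 and 32 (0.176%) as lower. With overlap allowed, 271 genes (1.49%) were at least 2-fold higher and 244 (1.34%) at least 2-fold lower, so most large differences were not shared by every liver. Without a minimum size, 175 genes (0.962%) were higher and 245 (1.35%) lower with no overlap at either dose. A fit in limma at an adjusted p of 0.05 would call 1 gene (0.0055%), the dim Plcz1, and nothing is read from that since the split was chosen on these values. The numbers counted were sensitive to single arrays near the border: without replicate 5 at 0.5% 152 genes were counted as higher and 95 as lower, without replicate 6 at 1.0% 102 and 67, without replicate 1 at 0.5% 92 and 67, and without both arrays of high 18S signal 167 and 126. All 56 higher genes and 29 of the 32 lower genes were still counted without those 2 arrays. Leaving arrays out cannot add overlap, so a counted gene is lost only when its difference falls under 2-fold. Little is therefore read from the numbers kept. Without the 4 arrays apart on the principal component, which leaves 1 liver of replicates 4 to 6 per dose, 20 of the 56 and 23 of the 32 were still counted among 210 and 382. Without replicate 2 at 1.0%, 66 and 51 genes were counted, with 46 of the 56 and 27 of the 32 among them, and Mt1, Mt2 and Lpin1 differed by 4.79, 5.43 and 2.69.

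The 56 higher genes and the 32 lower genes differed in kind. Of the higher genes 17 (30.4%) had a mean signal below that of the median gene, against 29 (90.6%) of the lower ones. A mean under 4, where the log2(intensity + 1) scale is close to its floor, was found for 30 of the 32 lower genes. It was also found for 19 of the 56 higher genes, P2ry2 (1.63), Cidec (2.82) and Fam107a (2.89) among them, and for 9878 of all 18193 genes. Relative to the lower diets, the higher genes stood at a median of 1.37 in replicates 4 to 6 and 0.02 in replicates 1 to 3. The corresponding medians for the lower genes were -0.62 in replicates 4 to 6 and 0.63 in replicates 1 to 3. In 18 of the 56, all 6 livers of replicates 4 to 6 lay above all 12 livers of the lower diets, as in 96 genes (0.528%) of all 18193. The choice of the 56 used the same livers, so nothing is read from that share. The gap was larger in the 4 livers apart on the principal component (median 1.53 over replicates 1 to 3) than in the other 2 livers (0.69). This held in 50 of the 56 genes, against 10271 of all 18193. Both the 4 livers and the 56 genes were picked from these same values, so nothing is read from that count either.

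Several of the leading higher genes encode receptors and signals. Tnfrsf12a, the receptor of the cytokine TWEAK, had 7.98, 8.62 and 6.62 at 1.0% against 4.67, 1.95 and 1.98, and 7.78, 4.09 and 7.66 at 0.5% against 3.74, 1.41 and 2.09. The gap narrowed at 0.5% to the distance between replicate 5 and replicate 1, and the mean difference was 4.48 (SE 0.77). Il1r1, the signalling receptor of interleukin-1, had 8.88, 9.06 and 6.90 at 1.0% against 6.58, 4.03 and 6.47, and 9.07, 6.98 and 9.07 at 0.5% against 6.61, 6.02 and 5.51. It differed by 2.46 (SE 0.57), and in all 6 livers of replicates 4 to 6 it exceeded the lower-diet range of 5.37 to 6.06, as it did in 3 of replicates 1 to 3. A second, dim Il1r1 probe set differed by -0.29. The nucleotide receptor gene P2ry2 differed by 1.96 (SE 0.43) and Nrg4, a growth factor gene of the EGF family, by 1.93 (SE 0.51). Vcam1, an adhesion molecule of endothelium that inflammation raises, is also among the 56 and differed by 1.31 (SE 0.27). Like Sgk1, it is named after its values were seen.

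The other leading higher genes concern lipid droplets, the cytoskeleton and the glucocorticoid receptor. Cidec, which promotes growth of lipid droplets, had 5.68, 6.97 and 4.64 at 1.0% against 1.57, 3.28 and 3.25, and 4.52, 2.63 and 4.77 at 0.5% against 2.23, 0.62 and 2.32, a difference of 2.66 (SE 0.55). Ppl, encoding the cytolinker periplakin, differed by 2.59 (SE 0.52), and Fhad1 by 2.37 (SE 0.60). Fam107a, a stress- and glucocorticoid-inducible gene of an actin-binding protein whose promoter is shown above, differed by 2.16 (SE 0.60), with the widest gap in replicates 4 and 6 at 0.5% (6.71 and 5.73). Fkbp5 encodes a cochaperone that restrains the glucocorticoid receptor and is itself a standard glucocorticoid target. It had 8.10, 8.26 and 6.38 at 1.0% against 6.20, 5.37 and 6.02, and 8.14, 6.20 and 8.54 at 0.5% against 5.66, 5.58 and 5.40, and differed by 1.90 (SE 0.43). All 6 livers of replicates 4 to 6 were above the lower diets (4.81 to 5.69), as were 2 of replicates 1 to 3.

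The leading lower genes were mostly near the floor. Plcz1, a sperm phospholipase gene, had 0.23, 0.31 and 0.68 at 1.0% against 1.80, 2.41 and 1.92, and 0.19, 0.19 and 0.27 at 0.5% against 2.08, 2.18 and 1.76, while the lower diets spanned 0.06 to 2.03. Its difference was -1.71 (SE 0.14). The others named by the rule were Gsdma2 (-1.59), the vomeronasal receptor gene Vmn2r1 (-1.49), Dusp9 (-1.44), Trim45 (-1.39), Lca5l (-1.37), Efr3b (-1.35), Scel (-1.34), Six5 (-1.28), Ppp1r32 (-1.26) and Clstn3 (-1.26), and for each of them the 12 lower-diet livers spanned more than the difference itself. Ltc4s, encoding leukotriene C4 synthase, differed by -1.44 (SE 0.30), with 0.93 to 2.85 in replicates 4 to 6 and 2.59 to 3.77 in replicates 1 to 3 over both doses, ranges that meet only across doses. Of these 12 lower genes 6 have other probe sets, and for all 6 (Plcz1, Gsdma2, Dusp9, Lca5l, Efr3b and Scel) at least 1 of those had a difference above 0, at 0.02 to 0.44, all with mean signals under 1.5.

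**Figure D2:**
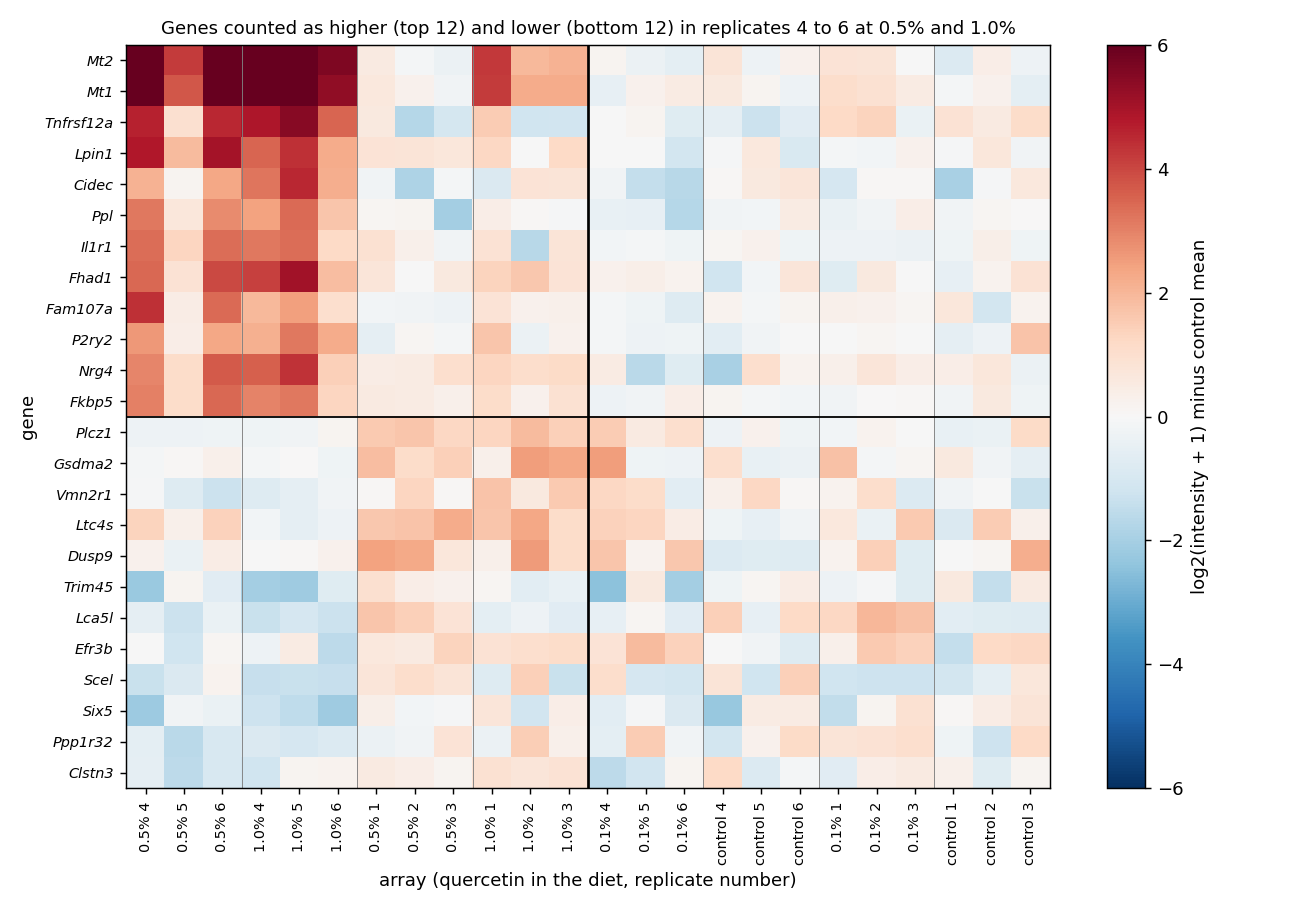
The 12 genes with the largest differences in each direction among those counted, in all 24 livers (columns, by quercetin in the diet and replicate number). Colour is log2(intensity + 1) minus the mean of the 6 control livers, capped at 6 either way. The upper genes are red in the 6 columns of replicates 4 to 6 at 0.5% and 1.0%, palest among these in 0.5% replicate 5 except for Il1r1. Mt1 and Mt2, and more faintly Fhad1, Nrg4, Fkbp5 and Fam107a, are also above the control mean in all of replicates 1 to 3 at 1.0%, whereas the lower genes are both red and blue among the 12 lower-diet livers.

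Glucocorticoid-responsive genes as a list leaned towards replicates 4 to 6. Of 32 measured, 26 were higher (81.2%), against 43.5% of all genes, and the median difference was 0.66, against -0.05 over all genes. Without the 4 livers apart on the first principal component 25 were higher, with a median of 0.28, against -0.01 over all genes. The list holds Mt2 and Lpin1, so it is not independent of the choice of the split, and 4 of its genes were counted (Mt2, Lpin1, Fkbp5 and Sgk1). Sgk1, a kinase gene, had 6.88, 6.46 and 6.47 at 1.0% against 5.95, 5.47 and 6.11, and 8.05, 6.56 and 8.02 at 0.5% against 6.16, 6.35 and 6.22. At 0.5% its replicate 5 (6.56) was barely above replicate 2 (6.35), and the mean difference was 1.03 (SE 0.26). Only 2 of the 6 livers of replicates 4 to 6 exceeded the lower-diet range of Sgk1, 5.99 to 7.33. Relative to the lower-diet mean, replicates 4 to 6 stood at 0.44 and replicates 1 to 3 at -0.59. Sets without overlap, higher in replicates 4 to 6, were seen for 9 of the 32 at 1.0% and for 16 at 0.5%, against 7.1% and 5.6% of all genes.

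Large members of that list overlapped at 1.0%. Igfbp1, an insulin-like growth factor binding protein that insulin represses and glucocorticoids raise, had 10.51, 8.07 and 7.40 at 1.0% against 8.91, 6.99 and 5.73, where replicate 1 lay above replicates 5 and 6. At 0.5% it had 12.46, 9.10 and 12.45, against 6.69, 8.01 and 7.15, with no overlap. Cdkn1a, encoding the cell cycle inhibitor p21, had 7.97, 6.22 and 3.95 at 1.0% against 4.89, 3.94 and 3.96, and 8.15, 4.88 and 8.01 at 0.5% against 1.28, 4.61 and 3.67. The mean differences were 2.75 (SE 0.86) and 2.80 (SE 0.87). Cebpb, a transcription factor gene of the acute phase and of glucose production, differed by 1.04 (SE 0.27), and Tat, encoding tyrosine aminotransferase, by 0.67 (SE 0.25).

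Genes of fasting were mixed. In the gluconeogenesis and glucagon list 15 of 22 were higher, with a median of 0.24, and none was counted. G6pc, the catalytic subunit of glucose-6-phosphatase, had 9.39, 9.24 and 9.93 at 1.0% against 8.33, 8.36 and 8.58, and 10.01, 9.34 and 10.22 at 0.5% against 8.83, 9.31 and 9.18, a difference of 0.92 (SE 0.19) with no overlap at either dose. Unlike for Mt1, the higher values stayed inside the lower-diet range of 9.19 to 10.62, and it was all 3 replicates 1 to 3 at 1.0% (8.33 to 8.58) and 2 of the 3 at 0.5% that lay below it. The cyclic AMP-responsive repressor and activator gene Crem differed by 0.87 (SE 0.34) and Nr4a2, a nuclear receptor gene, by 0.81 (SE 0.33). Pck1, the rate-limiting step of gluconeogenesis, chosen after its values were seen, had a difference of only 0.43 (SE 0.22), with overlapping sets.

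Of 33 measured genes of PPAR-alpha signalling and fasting fat use, 13 were higher, with a median of -0.10, but without the 4 livers apart 28 were higher, with a median of 0.17. Angptl4, an inhibitor of lipoprotein lipase, differed by 0.78 (SE 0.23) and the droplet protein gene Plin4 by 0.78 (SE 0.22). G0s2, which encodes an inhibitor of the lipase ATGL, split by dose. It had 10.32, 9.52 and 10.11 at 1.0% against 8.52, 8.63 and 9.75, but 5.79, 9.84 and 5.76 at 0.5% against 10.45, 9.74 and 9.62, so that replicates 4 and 6 at 0.5% lay far below every other liver while replicate 5 did not.

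Of 23 insulin- and feeding-responsive genes 4 were higher in replicates 4 to 6, with a median of -0.24. Without the 4 livers apart 14 were higher, with a median of 0.04. Irs1, an insulin receptor substrate, had 5.90, 5.51 and 6.43 at 1.0% against 6.72, 6.69 and 6.56, and 5.86, 6.48 and 5.00 at 0.5% against 6.56, 7.17 and 6.65, with no overlap at either dose and a difference of -0.86 (SE 0.25). Srebf1, a master regulator of fat synthesis, differed by -0.79 (SE 0.39) with overlap at both doses. Thrsp, a lipogenic gene, went against the list at 1.02 (SE 0.28), with 10.59 to 11.70 in replicates 4 to 6 and 9.40 to 10.93 in replicates 1 to 3 over both doses. In the cholesterol synthesis list 3 of 20 were higher, with a median of -0.21, and without the 4 livers apart 13 were higher, with a median of 0.04. Its largest differences were 0.66 for squalene epoxidase (Sqle), -0.49 for Hmgcs1, -0.41 for Fdft1 and -0.33 for Mvk, with SE of 0.18 to 0.38.

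The number of stress genes without overlap differed between the doses, although no gene of these lists passed the interaction test given below. Of 27 immediate early genes, the first transcription factors and regulators that follow a stimulus, 23 were higher (median 0.39), without overlap for 1 gene at 1.0% (7.1% of all genes) and for 9 at 0.5% (5.6% of all genes). Without the 4 livers apart 17 were higher, with a median of 0.20. Egr1, which the list of feeding-responsive genes also holds, had 6.26, 5.64 and 5.66 at 1.0% against 7.49, 5.69 and 5.80, but 10.76, 7.05 and 10.44 at 0.5% against 5.19, 4.49 and 4.69. Fos had 3.19, 3.73 and 3.49 at 1.0% against 4.11, 1.12 and 2.76, and 7.97, 5.30 and 6.43 at 0.5% against 3.88, 2.85 and 3.02. Maff differed by 0.38 at 1.0% and 3.04 at 0.5%, and the antiproliferative gene Btg2 by 0.43 and 2.86. Replicates 4 and 6 at 0.5% held the highest values of all 24 livers for these 4 genes.

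For heat shock genes the numbers ran the other way. Of 24 measured, 20 were higher (median 0.41), without overlap for 11 at 1.0% and for 0 at 0.5%, beside the same shares of all genes. Without the 4 livers apart 10 were higher, with a median of -0.03. Hspb1, a small heat shock protein gene, had 7.11, 7.79 and 6.12 at 1.0% against 5.43, 5.63 and 5.11, and 7.05, 5.17 and 6.75 at 0.5% against 6.50, 5.55 and 5.29. The chaperone gene Hsp90aa1 had 10.77, 11.54 and 10.29 at 1.0% against 9.23, 9.07 and 9.86, and 10.91, 9.82 and 11.32 at 0.5% against 10.74, 10.07 and 10.03. Replicate 1 at 0.5%, the array with the brightest 18S signal, was also high, with the Hsp70 gene Hspa1b at 11.63, and Hspa1b differed by 0.86 (SE 0.61) overall. Hsph1 differed by 0.92 (SE 0.42). Relative to the control mean, the mean of the 24 genes reached 0.61 at 1.0% (replicate 5) and 0.974 at 0.5% (replicate 6), against 0.85 in control replicate 2. Hspa1b was at 11.66 in that control liver. In the unfolded protein response list 17 of 29 were higher (median 0.01), or 5 without the 4 livers apart (median -0.16), with Xbp1 at 0.72 (SE 0.17) and no overlap at 1.0%, and Creld2 at 0.65 (SE 0.43).

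**Figure D3:**
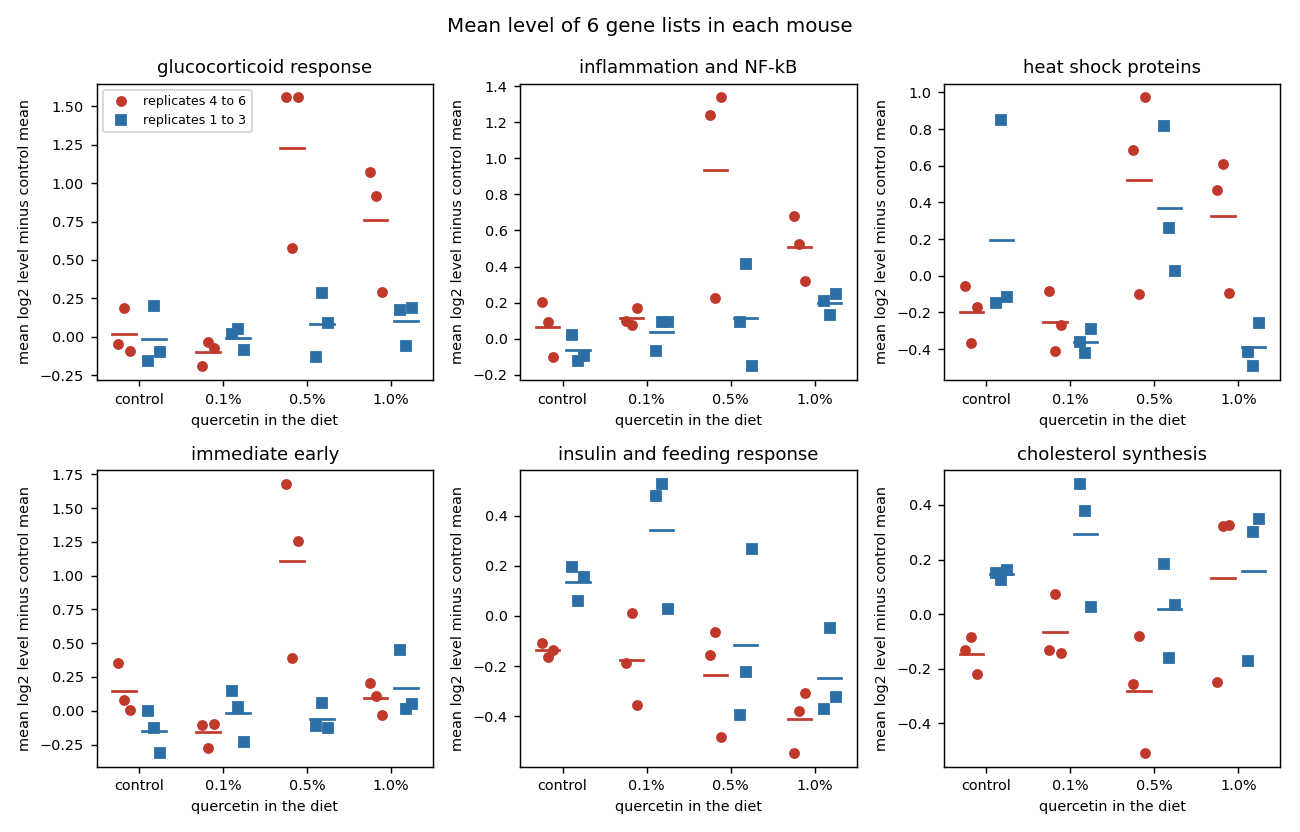
Mean log2 level of the measured genes of 6 lists in each liver, minus the mean of the 6 control livers, by quercetin in the diet. Circles are replicates 4 to 6, squares are replicates 1 to 3 and short lines are their means. The glucocorticoid list reaches 1.56 in 0.5% replicate 4 and 1.07 in 1.0% replicate 4, the immediate early list is high in 0.5% replicates 4 and 6 only (1.68 and 1.26), and control replicate 2 is the highest control liver for heat shock genes.

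Inflammatory genes were higher in part. Of 24 inflammation and NF-kB genes 18 were higher (median 0.46), and 2 were counted. Without the 4 livers apart 14 were higher, with a median of 0.21. Cxcl1, a chemokine that draws neutrophils, had 9.75, 8.89 and 7.30 at 1.0% against 8.11, 7.34 and 8.51, and 11.10, 8.72 and 11.01 at 0.5% against 6.32, 6.62 and 6.00. It overlapped at 1.0%, where replicate 6 was the lowest of all 6 livers, and differed by 2.31 (SE 0.70). Bcl3, a nuclear NF-kB regulator gene, differed by 1.31 (SE 0.40).

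Of 28 acute phase genes 23 were higher, but with a median of only 0.15, and without the 4 livers apart 11 were higher, with a median of -0.02. Steap4, a metalloreductase gene raised by interleukin-6, had 10.49, 10.46 and 8.77 at 1.0% against 8.09, 7.77 and 7.96, and 10.79, 8.64 and 10.72 at 0.5% against 8.93, 7.58 and 7.62. All 6 livers of replicates 4 to 6 were above the lower-diet range of 7.08 to 7.68, as were 4 of replicates 1 to 3, and replicate 1 at 0.5% overlapped replicate 5. The interleukin-6 receptor gene Il6ra differed by 1.41 (SE 0.42), Lcn2 (lipocalin 2) by 1.80 (SE 0.75) and the serum amyloid gene Saa2 by 1.20 (SE 0.84), the last with wide overlap.

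Marker lists of other cells had medians from -0.21 (endothelium) to 0.40 (muscle), against -0.05 over all genes. Of 11 neutrophil markers 6 were higher, with a median of 0.13. S100a8 differed by 1.48 (SE 0.44), S100a9 by 1.20 (SE 0.46) and Mmp8 by 1.29 (SE 0.46), but the granule markers Ngp, Camp, Mpo and Elane had differences below 0. The mean log2 level of the 11 ran from 3.05 to 4.40 in replicates 4 to 6 and from 2.83 to 3.50 in replicates 1 to 3. Of 15 Kupffer cell and macrophage markers 7 were higher, with means of 5.58 to 6.03 in replicates 4 to 6 and 5.65 to 5.91 in replicates 1 to 3. The counts were 4 of 13 for lymphocytes, 3 of 14 for endothelium, 5 of 15 for stellate cells and matrix, 5 of 7 for cholangiocytes, 3 of 9 for pancreas, 2 of 5 for adipose tissue, 3 of 6 for erythroid cells and 7 of 9 for muscle. The muscle markers averaged 1.43 to 2.06 in replicates 4 to 6 and 1.33 to 2.32 in replicates 1 to 3, near the floor. Without the 4 livers apart 8 of the 14 endothelial markers were higher, with a median of 0.03, and 6 of the 9 muscle markers, with a median of 0.12. The part of other cells in the results was not tested.

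Lists of hormone, clock and drug-response genes had medians of -0.17 to 0.08. Of 18 growth hormone and STAT5 genes 8 were higher. Socs2, a brake on growth hormone signalling, differed by 1.52 (SE 0.56), and Cish, another such brake, by -0.58 (SE 0.44). Onecut1, a hepatocyte transcription factor gene, differed by 1.21 (SE 0.48), and Igfals, which carries circulating insulin-like growth factor, by -0.72 (SE 0.22). Of 24 clock genes 13 were higher. Noct (nocturnin), rhythmic in liver, was counted, with 5.51, 4.44 and 4.67 at 1.0% against 4.27, 3.23 and 3.99, and 7.13, 5.50 and 7.73 at 0.5% against 4.19, 4.05 and 4.02. Only 2 livers of replicates 4 to 6 exceeded its lower-diet range of 3.45 to 5.78. The clock activators Arntl and Npas2 differed by -0.99 (SE 0.36) and -0.96 (SE 0.45), and Usp2 by 1.01 (SE 0.55), each with overlapping sets at 1 dose or both.

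Alas1, the rate-limiting enzyme of heme synthesis, was counted with 8.97, 8.81 and 8.02 at 1.0% against 7.96, 7.06 and 7.50, and 10.79, 10.45 and 10.64 at 0.5% against 10.40, 9.58 and 8.73. Of 26 Nrf2 targets 10 were higher. Srxn1, which repairs oxidized peroxiredoxins, stood out among them at 1.95 (SE 0.44), with 8.60, 9.24 and 7.29 at 1.0% against 5.92, 6.39 and 5.91 and 7.96, 5.94 and 8.45 at 0.5% against 6.08, 5.83 and 5.65. Ugdh, of glucuronate supply, differed by 0.60 (SE 0.22). Of 24 targets of the xenobiotic receptors CAR, PXR and Ahr 8 were higher, with Cyp2b10 at 1.23 (SE 0.42) and Tiparp at 1.22 (SE 0.45). In the list of bile acid and sterol handling 6 of 24 were higher. Its bile acid 12-hydroxylase gene Cyp8b1 had 8.37, 8.44 and 8.89 at 1.0% against 9.48, 9.59 and 9.45, and 8.63, 8.94 and 8.45 at 0.5% against 9.20, 8.88 and 9.07, a difference of -0.66 (SE 0.16). The export pump gene Abcc3 differed by -0.66 (SE 0.17) and the hepatocyte factor Hnf4a by 0.62 (SE 0.15).

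Higher members numbered 6 of 31 for the respiratory chain, with a median of -0.06, close to that of all genes. They numbered 9 of 28 for amino acid catabolism, 15 of 25 for amino acid shortage and ATF4, 6 of 14 for thyroid hormone response and 7 of 17 for glycogen metabolism. They numbered 9 of 22 for heme and iron, 10 of 19 for p53 and growth arrest, 10 of 27 for the cell cycle and 17 of 27 for the interferon response. Without replicate 2 at 1.0% the medians of 3 of the 36 lists changed sign, to -0.01 for the clock, 0.01 for stellate cells and matrix and 0.02 for Kupffer cells and macrophages.

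**Figure D4:**
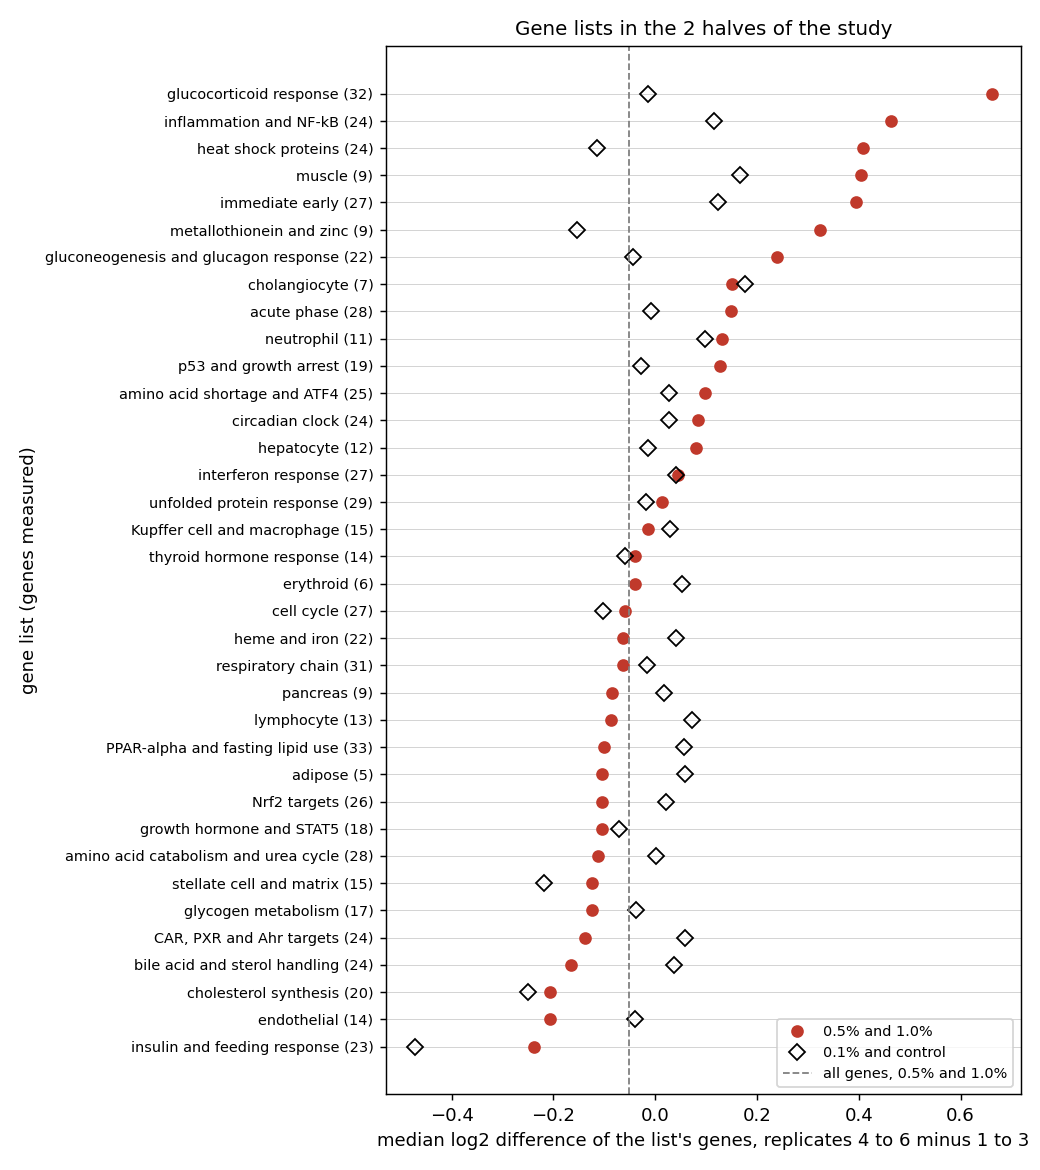
Median log2 difference, replicates 4 to 6 minus replicates 1 to 3, of the measured genes of 36 lists (number in brackets). Filled circles are the 0.5% and 1.0% livers, open diamonds the 0.1% and control livers, and the dashed line is the median of all genes at 0.5% and 1.0% (-0.05). The glucocorticoid list has the highest circle (0.66) with a diamond at -0.01, and the insulin and feeding list is lowest in both (-0.24 and -0.47).

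The same split of replicate numbers was then tested in livers that had no part in choosing it. Among the 6 livers of replicates 4 to 6 and the 6 of replicates 1 to 3 at 0.1% and control, 0 of 18193 genes passed limma's test at a Benjamini-Hochberg adjusted p of 0.05 (0%), and 948 (5.21%) had an unadjusted p under 0.05. Mt1 lay at 4.77 to 5.83 in replicates 4 to 6 and 4.67 to 6.30 in replicates 1 to 3, a difference of -0.22 (SE 0.27) with a 95% interval of -0.82 to 0.38. Mt2 differed by -0.14 (SE 0.33), with an interval of -0.87 to 0.58, and Lpin1 by -0.32 (SE 0.29), with an interval of -0.96 to 0.32. Each interval stops far short of the difference described at the higher doses. Tnfrsf12a pointed the other way, with 1.86 to 3.28 in replicates 4 to 6 against 2.73 to 4.49 in replicates 1 to 3 (difference -1.28 (SE 0.32), limma adjusted p = 0.776).

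Of the 56 higher genes, 17 were higher and 39 lower in replicates 4 to 6 of the lower diets (median -0.14). Of all 18193 genes, 9337 were higher and 8856 lower there (median 0.01). The 56 were chosen together and are not independent, so no reversal is read from their signs. Of the 32 lower genes, 18 were higher and 14 lower (median 0.04), and 0 of the 88 passed. Across all genes the 2 sets of differences had a correlation of -0.01, a description over genes that are not independent. The smallest p-values in the lower diets belonged to genes near the floor, Dmp1 (-1.62 (SE 0.19), adjusted p = 0.0981 in limma), Frrs1l (1.48 (SE 0.19), adjusted p = 0.0997, but -0.20 without normalization and -0.09 with median centring), Ankrd34b (-1.47) and Ankrd45 (1.29), and to Ppm1h (0.79).

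**Figure D5:**
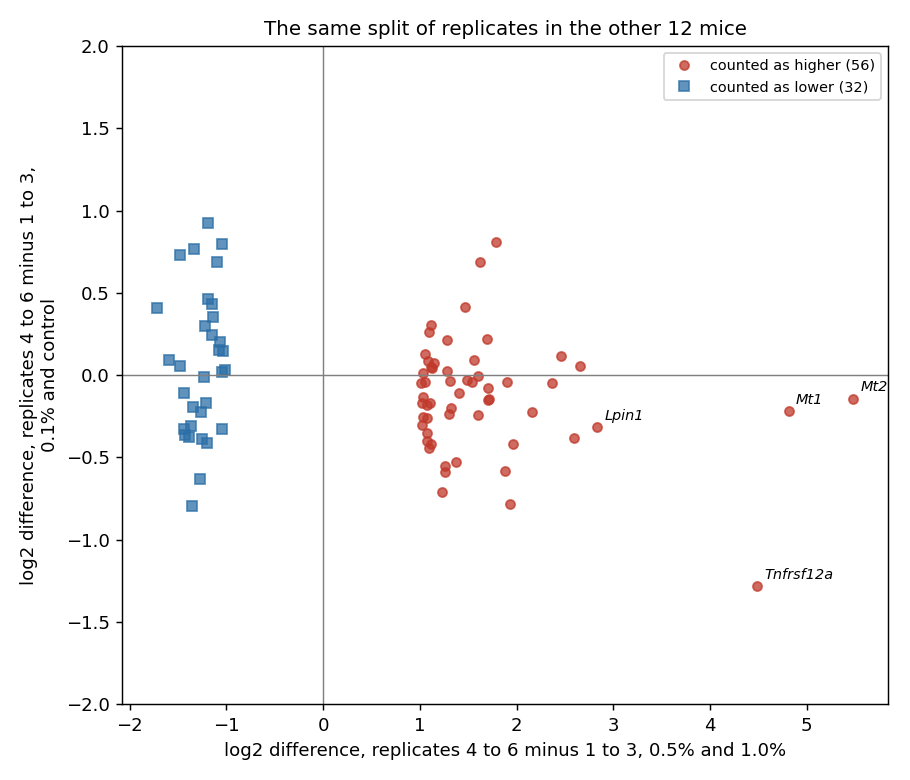
Log2 difference, replicates 4 to 6 minus replicates 1 to 3, of the 88 counted genes in the 0.5% and 1.0% livers (horizontal axis) and in the 0.1% and control livers (vertical axis). Red circles are the 56 genes counted as higher and blue squares the 32 counted as lower, each point 1 gene. On the vertical axis the points lie on both sides of 0, between -1.28 and 0.92.

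Lists of food response had medians below 0 in the lower diets too. At each of the higher doses, the mean levels of both lists overlapped between the sets. Of 23 insulin- and feeding-responsive genes, 4 were higher in replicates 4 to 6, with a median of -0.47, against 0.01 over all genes. Of 20 cholesterol synthesis genes 0 were higher (median -0.25). An unadjusted p under 0.05 was reached by 10 of the 23 and 9 of the 20, against 5.21% of all genes, and none passed the adjusted test. Elovl6, a fatty acid elongase gene, had 7.24 to 7.85 in replicates 4 to 6 and 7.95 to 8.56 in replicates 1 to 3, a difference of -0.65 (SE 0.12) with an adjusted p of 0.508 in limma. This gene and those that follow were chosen after their values were seen. Pklr, liver pyruvate kinase, differed by -0.47 (SE 0.10), the malic enzyme gene Me1 by -0.55 (SE 0.12), fatty acid synthase (Fasn) by -0.78 (SE 0.21), ATP citrate lyase (Acly) by -0.79 (SE 0.22), and the sterol pathway genes Fdps and Idi1 by -0.69 (SE 0.16) and -0.50 (SE 0.14). With trend and robust eBayes estimation Elovl6 (adjusted p = 0.00412 in limma) and Pklr (adjusted p = 0.011) passed. At the higher doses the same genes had differences of 0.04 (Elovl6), -0.24 (Pklr), -0.10 (Me1), -0.40 (Fasn), -0.37 (Acly), -0.14 (Fdps) and 0.16 (Idi1), with SE of 0.17 to 0.39. The glucocorticoid list had 16 of 32 higher in the lower diets, with a median of -0.01.

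The gap between the sets was compared between the doses as an interaction. No gene passed (0%), and 911 (5.01%) had an unadjusted p under 0.05. For Mt1 the gap at 1.0% minus that at 0.5% was -2.13 (SE 1.38), with a 95% interval of -5.22 to 0.96. For Lpin1 it was -0.57 (SE 1.14), with an interval of -3.11 to 1.97. Gaps several log2 units apart would not be detectable for Mt1. Since Mt1 at 0.5% had a part in choosing the split, its interaction is not independent of that choice, and nothing is read from it. For Egr1 the interaction was -5.10 (SE 1.23) with an adjusted p of 0.763 in limma. Without replicate 5 at 0.5% Egr1 passed at -6.28 (adjusted p = 0.0392 in limma), as did 6 others, G0s2 (5.18) and Tiparp (-2.67) among them. The smallest p belonged to Ntmt1, which encodes a methyltransferase of protein N-termini. It had 5.21, 4.97 and 5.12 at 1.0% against 3.64, 4.08 and 3.82, and 3.67, 2.95 and 3.63 at 0.5% against 4.71, 4.59 and 4.91, an interaction of 2.57 (SE 0.31) with an adjusted p of 0.164. It passed with a pseudocount of 16 (adjusted p = 0.012) and among genes above the median signal (adjusted p = 0.0172). Matn4 (3.36 (SE 0.44)), Hbb-bh1 (2.33 (SE 0.36)), Limk2 (-3.65 (SE 0.57)) and Amtn (2.21 (SE 0.36)) came next, all near the floor in part of the livers.

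With the replicate set as a covariate, 0 genes (0%) differed between 1.0% and 0.5%, and 1042 (5.73%) had an unadjusted p under 0.05. Alas1 had the smallest p, at -2.04 (SE 0.28) for 1.0% minus 0.5% (adjusted p = 0.25 in limma). Its range was 7.06 to 8.97 at 1.0% and 8.73 to 10.79 at 0.5%, with 2 livers of 1.0% above the lowest at 0.5%, and it passed with a pseudocount of 16 (-1.98, adjusted p = 0.0263). The next were the dim genes Lpar3 (1.58 (SE 0.24)), Ppfia4 (1.73 (SE 0.26)), Col25a1 (1.69 (SE 0.29)) and Gpr137b (1.44 (SE 0.27)). Mt1 differed between the doses by 1.58 (SE 0.73) (adjusted p = 0.86), and Mt2 by 1.59 (SE 0.78) (adjusted p = 0.873).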

How the data were processed

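The authors deposited 1 table of intensity values, on a linear scale, for 45101 probe sets and 24 arrays. How these intensities were computed from the scans is not given in the sources used here. The intensities were turned into log2(value + 1) and quantile-normalized between arrays. The platform's annotation gave 34945 probe sets 1 symbol and 932 several (not used), and it did not list 9211. RefSeq (GRCm38.p6) held the gene IDs of 34741. Where a gene had several probe sets, the one of highest mean signal over all arrays stood for it, which left 18193 genes.

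Differences between replicate sets were fitted with limma 3.58.1 in R 4.3.3, with dose or diet as covariate; tests were two-sided with eBayes and Benjamini-Hochberg adjustment over all genes, 95% intervals are limma's, and the scripts were checked on simulated data. Each mouse had its own array, and 6 arrays a set limit the precision. Folds on this scale understate changes of dim genes, but small differences in intensity near the floor also become large on it. With a pseudocount of 16, 24 higher and 0 lower genes were counted.

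The split, its markers and the 36 gene lists (785 genes, 713 measured) were chosen with earlier results of these data known. Genes were named by a rule: Mt1, Mt2 and Lpin1, the 12 largest differences each way among the counted genes, up to 4 of each list with the largest differences, and the 5 smallest p-values where fewer than 5 passed. Clone names were skipped. Alternatives were no normalization, median centring, a pseudocount of 16, the mean of probe sets, bright genes only, other fold limits and eBayes options, each array left out, a fit on all 24 arrays and a replicate block. Fits without the 4 arrays that stood apart, and without the 2 of high 18S signal, and list values without single arrays apart, were added after the data were seen. Figures were drawn with matplotlib, and the promoter sequences are from RefSeq.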

Additional observations from a re-analysis of the deposited data

Results flagged for a closer look

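In 412 groups of 6 arrays, 103 genes by 4 diets, 27 had 1 liver whose gap to the nearest of the other 5, as a share of the group's range, exceeded Dixon's 95% critical value, a limit that by its construction chance passes in about 1 group in 20.

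Control replicate 2 was high for heat shock genes: Hspa1b at 11.67 (the other 5 livers at 7.69 to 9.10), Hspa1a, chosen after its values were seen, at 7.62 (3.12 to 4.74), Hspb1 at 7.05 (4.91 to 5.38), Hsp90aa1 at 10.82 (9.26 to 9.58), Hsph1 at 9.14 (7.24 to 7.63), and also for Alas1 at 9.44 (7.18 to 7.72). Other control livers apart were replicate 1 for Cidec at 0.49 (2.37 to 3.20), replicate 3 for P2ry2 at 2.79, Dusp9 at 3.41 and Cyp2b10 at 4.56, and replicate 4 for Six5 at 0.61.

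At 0.1%, replicate 6 was low for Lpin1 at 3.76 (4.72 to 5.15) and Slc39a10 at 3.57, and replicate 4 was apart for Scel at 2.87, Cxcl1 at 8.42 (6.14 to 6.85) and Cyp8b1 at 8.98. At 0.5%, replicate 4 was apart for Six5 at 0.72, replicate 2 for Ppm1h at 0.53, replicate 5 for Col25a1 at 3.12 and replicate 1 for Idi1 at 8.75. At 1.0%, replicate 4 was apart for Maff at 5.10 (3.75 to 4.08), Tat at 10.91 (9.67 to 9.99) and Clstn3 at 1.66, replicate 2 for Scel at 3.24 and Nr4a2 at 1.32, replicate 1 for Egr1 at 7.49 (5.64 to 6.26), and replicate 3 for Npas2 at 1.52.

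In 4 genes every liver of replicates 4 to 6 lay above replicates 1 to 3 in one diet and below them in another. The differences at 1.0% and 0.5% were 1.25 and -1.32 for Ntmt1, 1.28 and -2.08 for Matn4, and 1.07 and -1.14 for Amtn, none of which passed the interaction test (limma adjusted p = 0.164, 0.186 and 0.267). For Lca5l the differences were -2.01 at 0.1% and 1.40 in control, a contrast that was not tested.

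Control probe sets for 18S ribosomal RNA, outside the gene comparisons, read 9.81 in replicate 6 at 1.0% and 10.73 in replicate 1 at 0.5%, against 5.83 to 8.43 in the control diet.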

How the results depend on the processing

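The differences of Mt1, Mt2 and Lpin1 kept their sign under every alternative run and ran from 4.42 to 5.23, 5.08 to 5.93 and 2.56 to 3.25 with 1 array left out. Without the 4 arrays apart they were 2.97, 3.52 and 1.26. The count of higher genes (56) and lower genes (32) was 24 and 0 with a pseudocount of 16, 108 and 79 at 1.5-fold, 9 and 0 at 4-fold, 210 and 382 without the 4 arrays apart, 167 and 126 without the 2 arrays of high 18S signal, and 56 to 152 and 39 to 95 with 1 array left out. The lower genes numbered 21 with the mean of probe sets and 3 among bright genes. The tested comparisons gave 0 genes in the main fits. With 1 array left out they gave 0 to 4 for the sets at the lower diets, 0 to 7 for the interaction (7 without replicate 5 at 0.5%) and 0 to 1 for the doses. The lower-diet calls came without control replicate 2 (4), replicate 4 (3) or replicate 5 (1), or 0.1% replicate 1 (1) or replicate 6 (1), and the dose calls without replicate 2 at 0.5% or at 1.0%. The pseudocount of 16 gave 1 for the interaction and 1 for the doses, bright genes gave 1 for the interaction, and eBayes with trend and robust estimation gave 2 at the lower diets (Elovl6 and Pklr, adjusted p = 0.00412 and 0.011), 1 for the interaction (Ntmt1) and 1 for the doses (Errfi1). The cause of these changes was not tested, except that fewer livers per set overlap more rarely. The lower-diet difference of Frrs1l turned to -0.20 without normalization and -0.0924 with median centring. No normalization moved the median of all genes in the lower diets by over 0.1, to -0.16, so the insulin and feeding list (-0.67) and the cholesterol list (-0.44) stay lower relative to it. With the mean of each set within its diet removed, same-numbered arrays had correlations of -0.10 to 0.04 between the higher doses. Between the lower diets they were -0.004 to 0.0203. With only the mean of each diet removed, which leaves the set difference in, 3 of 12 and 2 of 12 arrays correlated best with their own number among the 6 of the other diet. Whether the numbers pair livers across diets was not tested. With the replicate block, 0 genes passed in each of the 3 tests. Signals under 4 are near the floor, which limits 30 of the 32 lower genes and 19 of the 56 higher genes.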
